A study of Homo sapiens with 16 samples.

Results

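Interferon response genes were followed in the accessible chromatin of MDA-MB-231, an established human breast adenocarcinoma line labelled wild type. They are the 9 genes IRF1, IRF7, IRF9, ISG15, IFIT1, IFIT2, IFIT3, MX1 and OAS1, out of 20037 annotated protein-coding genes. Each peak whose summit lay in the body of one of them or within 50 kb of it (GRCh38) was given to the nearest of the 9. This took 114 of 129755 peaks in selected cells on soft gel, 108 of 122591 in selected cells on stiff gel, 117 of 109578 in ancestral cells on soft gel and 107 of 116043 in ancestral cells on stiff gel. Merged by overlap, they made up 133 of 164016 regions. ATAC-seq, in which a transposase inserts adapters into open DNA, was run on 16 samples, 4 per group. Soft gels had a stiffness of 1 kPa and stiff gels of 308 kPa, and both were polyacrylamide coated with type I collagen. Selected cells had been carried on gels for 75 days, with 20000 cells replated about every 7 days, and ancestral cells are their unselected counterparts. The series' design text speaks of soft-selected cells on a soft matrix compared with ancestral cells on a soft matrix, and the labels do not say on which gel the selected cells of the stiff group had been selected. All 4 groups share the cell line and carry no other treatment in the labels. Each group is represented by 1 deposited peak list. Replicate spread therefore cannot be given, groups were not tested against each other, and the labels do not say whether the 4 samples of a group came from separate cultures.

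Cells answer viral RNA or DNA by releasing interferons, and type I interferon signals through the receptor pair IFNAR1 and IFNAR2 and the kinases JAK1 and TYK2. The kinases activate transcription factors, among them STAT2, which joins IRF9 in the complex ISGF3. ISGF3 binds the interferon-stimulated response element (ISRE) in front of antiviral genes, while the gamma-activated site (GAS) serves the response to interferon gamma, of which IRF1 is a classic target. IRF1 and IRF7 are transcription factors that extend the response, and IRF7 amplifies type I interferon genes. ISG15 is a ubiquitin-like modifier, IFIT1, IFIT2 and IFIT3 are RNA-binding proteins that act together against foreign RNA, MX1 is a GTPase that blocks viral ribonucleoproteins, and OAS1 makes the second messenger that activates RNase L.

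Promoter windows from 250 bases before to 50 bases after the start are shown for 5 members, because their peaks carry the levels described next. They come from RefSeq on GRCh38.p14, whose table holds 10 windows of 7 members and none for IRF7 or IFIT2. Capitals mark matches on either strand to the ISRE core (GAAA, any 2 bases, GAAA) in IFIT1, IFIT3 and MX1, and to the GAS (TTC, any 3 bases, GAA) in IRF1 and OAS1. IFIT1 lies at chr10:89392373-89392672 (plus strand), the first start of IFIT3 at chr10:89327747-89328046 (plus), the first start of MX1 at chr21:41420308-41420607 (plus), IRF1 at chr5:132490724-132491023 (minus) and OAS1 at chr12:112906712-112907011 (plus).
IFIT1: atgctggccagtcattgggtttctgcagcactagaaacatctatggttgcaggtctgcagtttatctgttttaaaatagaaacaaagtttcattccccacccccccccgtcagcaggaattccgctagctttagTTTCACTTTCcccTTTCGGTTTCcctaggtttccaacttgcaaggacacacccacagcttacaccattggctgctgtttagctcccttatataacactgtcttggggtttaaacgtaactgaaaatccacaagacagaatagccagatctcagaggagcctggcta
IFIT3: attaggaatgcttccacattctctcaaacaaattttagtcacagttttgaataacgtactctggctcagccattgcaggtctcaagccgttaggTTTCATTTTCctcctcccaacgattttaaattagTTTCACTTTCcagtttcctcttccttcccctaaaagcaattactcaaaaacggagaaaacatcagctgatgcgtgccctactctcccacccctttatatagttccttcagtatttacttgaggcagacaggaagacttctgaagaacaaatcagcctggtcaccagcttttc
MX1: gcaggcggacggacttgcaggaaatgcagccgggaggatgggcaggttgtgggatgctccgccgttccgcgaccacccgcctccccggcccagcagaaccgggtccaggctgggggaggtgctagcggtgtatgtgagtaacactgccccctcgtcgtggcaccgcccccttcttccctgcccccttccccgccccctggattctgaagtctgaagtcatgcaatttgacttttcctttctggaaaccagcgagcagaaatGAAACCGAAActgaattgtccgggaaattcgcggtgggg
IRF1: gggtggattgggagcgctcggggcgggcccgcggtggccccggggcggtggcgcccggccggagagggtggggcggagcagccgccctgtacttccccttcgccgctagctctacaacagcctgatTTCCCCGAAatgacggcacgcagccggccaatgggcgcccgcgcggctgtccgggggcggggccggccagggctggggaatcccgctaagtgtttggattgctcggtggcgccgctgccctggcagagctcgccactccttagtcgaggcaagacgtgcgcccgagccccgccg
OAS1: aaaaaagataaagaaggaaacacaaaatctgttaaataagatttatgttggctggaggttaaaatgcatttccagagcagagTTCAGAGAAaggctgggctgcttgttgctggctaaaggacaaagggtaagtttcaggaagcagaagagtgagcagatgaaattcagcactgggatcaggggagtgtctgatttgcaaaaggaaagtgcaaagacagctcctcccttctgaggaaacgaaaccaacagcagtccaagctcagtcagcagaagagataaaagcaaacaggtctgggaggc

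The ISRE core was found in 3.57% and the GAS in 7.66% of all 35116 windows of 300 bases. Of the 7 members in the table, IFIT1, IFIT3, ISG15 and MX1 held an ISRE core, and IRF1, IRF9, OAS1 and MX1 held a GAS. The pattern misses GAAA pairs with other spacing. The OAS1 window holds such a closer pair, gaaacgaaa, before its start. IFIT1 had its pair of ISRE cores at bases -116 to -107 and -103 to -94 from the start, and the first start of IFIT3 had its pair at -156 to -147 and -122 to -113. The ISRE core of MX1 lay at bases 11 to 20, just after the first start. A further start of MX1 at chr21:41431800-41432099 held an ISRE core and a GAS that share bases, and no list had a peak there. The GAS lay at -124 to -116 in IRF1 and at -168 to -160 in OAS1. The promoter peak covered the whole window of IFIT1 in each list and that of IRF1 in the 3 lists read there. The IFIT1 summit was at base 32 in selected soft, -25 in selected stiff, 536 in ancestral soft and -25 in ancestral stiff, downstream of both its ISRE cores. The IRF1 summit was at -94 in selected soft and at -136 in both selected stiff and ancestral soft. A match is a run of letters and was not shown to be bound.

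The pileup is the number of overlapping fragments at a peak's summit as deposited, and lists differ in depth. Pileup was therefore divided by the median pileup of all peaks in the same list, which was 51 for selected soft, 56 for selected stiff, 111 for ancestral soft and 132 for ancestral stiff. The depth of single samples is unknown. The genome-wide background behind the peak calls stood at 0.264, 0.225, 0.147 and 0.153 of these medians in the same order, so a weak peak sat closer to background in the selected lists. Peak numbers run in order of position, and 1.00% of the numbers are skipped in each list. All skipped stretches were longer than the widest listed peak, so a gene without a peak there was called undetermined and not closed. In the labelled line, promoter peaks were present for 3, 3, 1 and 1 of 4 mesenchymal-like breast markers, with the remaining 1, 1, 3 and 3 undetermined. Luminal breast markers had promoter peaks for 3, 3, 3 and 4 of 4, fibroblast markers for 3 of 3 in every list, blood markers for 3, 2, 1 and 1 of 4 and endothelial markers for 1, 1, 0 and 0 of 2. Blood and endothelial markers with a peak were thus more numerous in the selected lists, PTPRC and PECAM1 had none in any list, and their part in the results was not tested.

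The promoters of the regulators stood above the median promoter in every group where they could be read. IRF1 had a promoter pileup of 966 in selected soft (18.9 times the list median), 1370 in selected stiff (24.5 times) and 1937 in ancestral soft (17.5 times), and was undetermined in ancestral stiff. IRF9 had 557 and 659 in selected soft and stiff, against 1181 and 1494 in ancestral soft and stiff. Relative to the list median these IRF9 levels were 10.9, 11.8, 10.6 and 11.3, the narrowest range among the 6 members read in all lists (0.15 on the log2 scale). Both genes stood above the median promoter peak of all genes, which was at 5.73 times the list median in selected soft, 7.02 in selected stiff, 6.51 in ancestral soft and 8.06 in ancestral stiff. IRF7, at chromosome 11 from 612555 to 615950, fell in a skipped stretch in all 4 lists, so its own promoter gave no value.

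The antiviral genes had lower promoter levels than the median promoter in every list where they could be read, except ISG15. ISG15 had a peak of pileup 503 and width 7209 bp at its start in selected soft (9.86 times the list median) and was undetermined in the other 3 lists. IFIT1 had a pileup of 153 in selected soft and 177 in selected stiff, against 478 in ancestral soft and 607 in ancestral stiff. These IFIT1 values were 3.00 and 3.16 times the list median in selected soft and stiff, and 4.31 and 4.6 times in ancestral soft and stiff, so both selected lists lay below both ancestral ones. Fewer cells with an open site and a less open site in each cell cannot be told apart in such bulk samples. IFIT2 had 122, 113, 242 and 311 in the same order, which was 2.39, 2.02, 2.18 and 2.36 times the list median. IFIT3 had 252, 266, 526 and 820, or 4.94, 4.75, 4.74 and 6.21 times the median. For IFIT2 and IFIT3 the selected and ancestral levels overlapped. MX1 had 216, 305, 488 and 813, or 4.24, 5.45, 4.40 and 6.16 times the median. It was higher on stiff gel in both populations, as was the median promoter of all genes. OAS1 had the weakest promoter of the genes that could be read, with a pileup of 56, 48, 85 and 89, or 1.10, 0.857, 0.766 and 0.674 times the median.

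**Figure D1:**
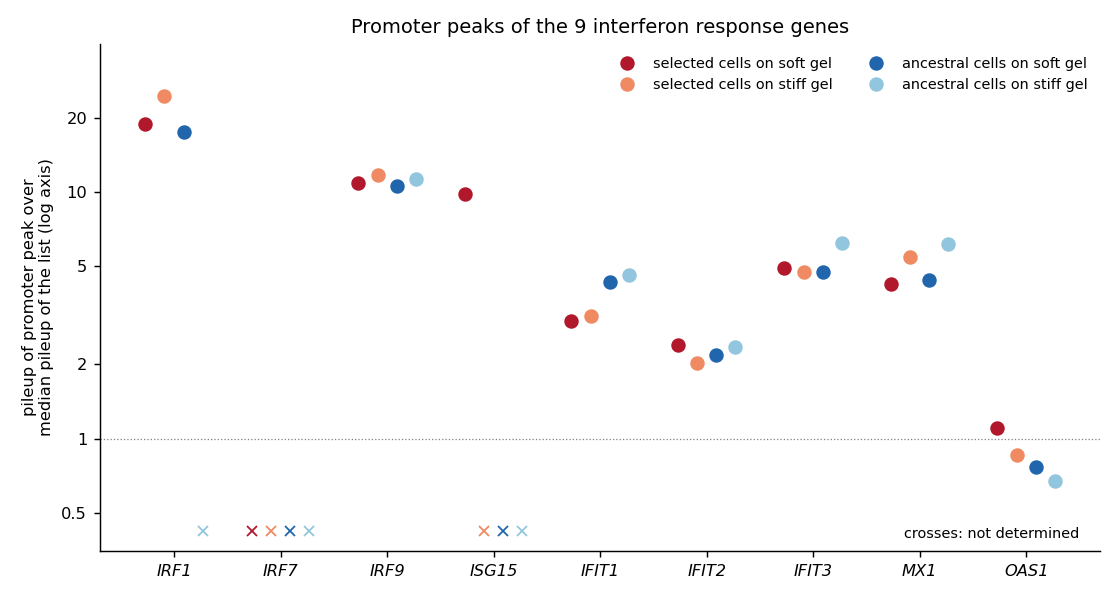
Pileup of the promoter peak over the median pileup of its list (log axis) for the 9 genes, 1 point per peak list, with crosses where a skipped peak number leaves the promoter undetermined. IRF1 and IRF9 lie above 10, the IFIT genes and MX1 between 2.02 and 6.21, and OAS1 near 1.

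The comparison of selected with ancestral cells is the one the series' design text names for soft gel. At promoters, IFIT1 was lower in selected cells on both gels. Its log2 ratio minus the median ratio of all promoters, the form used for every promoter ratio here, was -0.55 on soft gel (95% interval -0.81 to -0.28) and -0.51 on stiff gel (-0.76 to -0.27). A lower ratio than that of IFIT1 was found at 8.05% of 13599 genes on soft gel and at 5.71% of 13824 genes on stiff gel. Among regions of like height, at 3 to 10 times the list median, 16.5% and 17.8% had a lower ratio than the IFIT1 promoter region, which was at -0.39 and -0.32 from their median on the log2 scale. These intervals are exact binomial ones from the 2 pileups and cover counting error only. IFIT3 was lower on stiff gel (-0.35, -0.56 to -0.16), with 0.04 (-0.18 to 0.26) on soft gel. The difference between the gels was not tested. OAS1 had a ratio above the median promoter, 0.50 (-0.01 to 1.00) for the soft and 0.38 (-0.16 to 0.90) for the stiff gel, with intervals that include 0. Among regions that average under the list median, however, the OAS1 promoter region lay below their median, at -0.22 on soft and -0.13 on stiff gel. Of those regions 34.7% and 41.0% had a lower ratio. IRF9 was at 0.01 and 0.09, IFIT2 at 0.11 and -0.19, and MX1 at -0.08 and -0.14 on soft and stiff gel, all within intervals that include 0. IRF1 could be compared on soft gel alone, at 0.09 (-0.01 to 0.21).

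No member promoter differed 2-fold from its list-median level in the other population. Among all genes, 4.95% of promoters were at least 2-fold higher and 1.38% lower in selected cells on soft gel, and 3.77% were higher and 1.16% lower on stiff gel. The median over the members was 0.04 for 7 genes on soft gel and -0.17 for 6 genes on stiff gel. The scale matters for the absolute ratio: the median of all promoters was 0.02 on soft gel and -0.03 on stiff gel on the list-median scale, but -0.82 and -0.59 relative to the genome-wide background. On that background scale IFIT1 was past 2-fold lower in selected cells, with -1.37 for the soft and -1.10 for the stiff gel, as were 29.2% and 8.78% of all promoters. Taking the peak nearest to any start in place of the highest one gave IFIT3 a ratio before centring of 2.08 (soft gel) and 1.62 (stiff gel), past 2-fold higher as were 6.23% and 4.84% of promoters, because a different IFIT3 start then stood for each population.

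**Figure D2:**
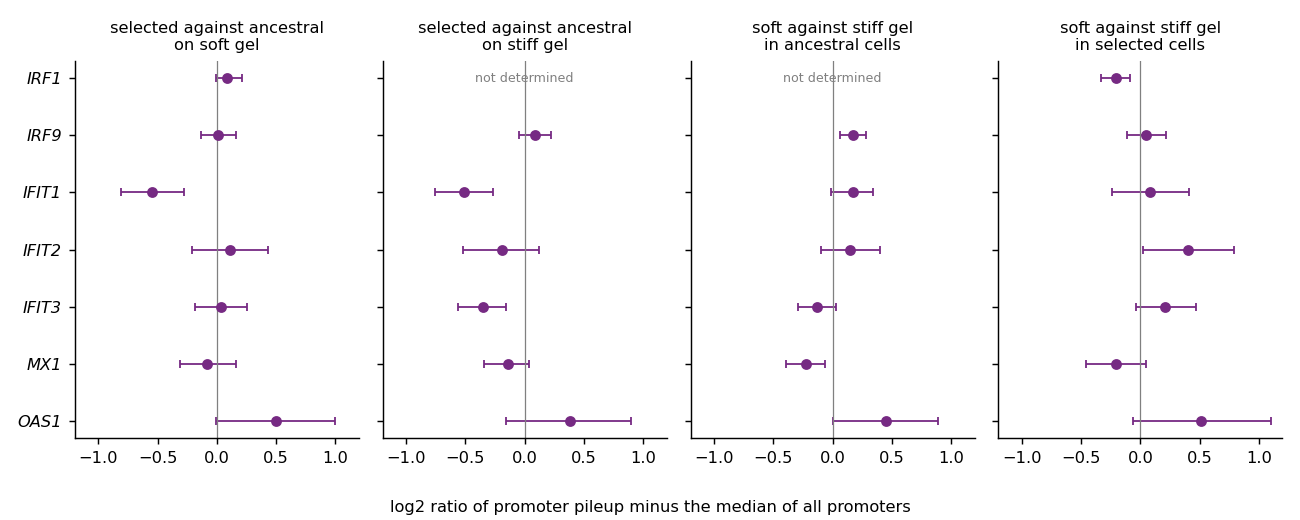
Log2 ratio of promoter pileup over the list median, minus the median of all promoters, for the 7 genes with a value, in 4 comparisons. Points are the ratio and bars its exact binomial 95% interval from the 2 pileups. IFIT1 lies below 0 with its whole interval in both comparisons of selected with ancestral cells.

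Between gels, the member promoters differed by less than 2-fold in each population. Among all genes, 0.345% of promoters were at least 2-fold higher and 2.55% lower on soft than on stiff gel in ancestral cells, and 0.671% were higher and 3.99% lower in selected cells. Before centring, the median ratio of all promoters was -0.26 in ancestral and -0.16 in selected cells. Relative to this median, IRF9 was higher on soft gel in ancestral cells (0.17, 0.06 to 0.28), but at -0.09 (-0.20 to 0.02) before centring. MX1 was lower there (-0.22, -0.39 to -0.06), although MX1 was at -0.09 (-0.26 to 0.08) with the peak nearest to a start. In selected cells IRF1 was lower on soft gel relative to the median (-0.21, -0.33 to -0.09), and MX1 was at -0.21 (-0.46 to 0.05). IFIT2 was higher (0.40, 0.02 to 0.79), with 0.25 (-0.14 to 0.63) before centring. IFIT1, at 0.17 (-0.01 to 0.34) in ancestral and 0.08 (-0.24 to 0.41) in selected cells, had intervals that include 0. OAS1 was at 0.45 (0.00 to 0.89) in ancestral and 0.51 (-0.06 to 1.10) in selected cells, a ratio above that of 97.9% and 95.4% of genes. Before centring OAS1 was at 0.18 and 0.36. Regions that average under the list median, as the OAS1 promoter region does, had medians of -0.10 and 0.17 before centring. Their 95th percentiles were 0.44 and 0.63, so OAS1 was less extreme among regions of like height.

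Peak presence showed the windows around the interferon genes to be largely shared, although most peaks in them lay nearest to other genes. A member was the nearest protein-coding gene, or tied for it, for 28 of 114 and 28 of 108 peaks in selected soft and stiff. In ancestral soft and stiff these were 27 of 117 and 23 of 107. For MX1 they were 4 of 16, 5 of 17, 4 of 15 and 4 of 17 peaks, and for IRF9 3 of 17, 2 of 15, 1 of 11 and 1 of 11. Of the 133 regions, 72 had a peak in all 4 lists, or 54.1% (exact binomial interval 45.3 to 62.8%), beside 43.7% of all regions. The interval takes the regions as independent draws, although they are neighbours around the same few genes, so it is no test of this difference. Both selected lists, and neither ancestral one, held a peak in 8 regions, and the reverse was true of 3, or 6.02% and 2.26%, beside 9.35% and 5.39% of all regions. Both soft lists alone held 0 member regions and both stiff lists alone held 0, beside 0.71% and 1.07% of all regions. A further 20 regions were undetermined in at least 1 list, of which 11 belonged to IRF7, 7 to ISG15 and 2 to IRF1. Lists also differ in how low a peak was called. Among the lowest member peaks are ones at 0.588 times the list median in selected soft and 0.482 in selected stiff. In ancestral soft and stiff such peaks stood at 0.306 and 0.318. A weak site could thus be listed in ancestral cells and missed at the same level in selected cells. The part of this in the presence counts was not tested.

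**Figure D3:**
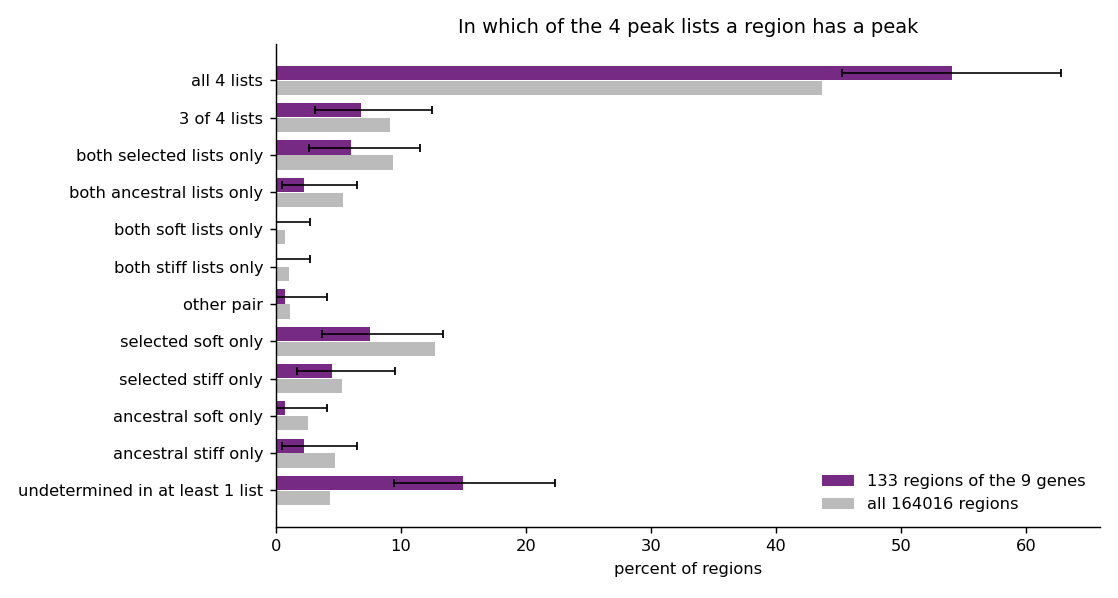
Percent of regions with a peak in each combination of the 4 lists, for the 133 regions of the 9 genes (purple, with exact binomial 95% intervals) and for all 164016 regions (grey). The intervals take neighbouring regions as independent draws. Members have 54.1% of regions in all 4 lists, beside 43.7% of all regions, and 15.0% undetermined, beside 4.34%.

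On soft gel, 29 member regions had a peak in selected cells alone and 18 in ancestral cells alone, out of 130. These are 22.3% and 13.8%, beside 30.8% and 15.7% of all regions. With undetermined regions left out the counts were 26 and 8 of 117 (22.2% and 6.84%), beside 31.0% and 13.3%. On stiff gel the counts were 20 and 19 of 122, beside 22.8% and 17.4% of all regions, and 18 and 8 of 109 without undetermined ones, beside 22.5% and 15.8%. Between gels, ancestral cells had 13 regions on soft gel alone and 13 on stiff gel alone, beside 8.96% and 15.5% of all 125572 regions. Without undetermined regions these became 2 and 12 of 109, beside 7.99% and 15.0%. Selected cells had 21 and 13 of 121, beside 19.8% and 12.9%, and 14 and 12 of 113 without undetermined ones, beside 19.4% and 12.0%. Once undetermined regions were left out, the members' share of regions seen in only the first-named list was below that of all regions in each of the 4 comparisons. The same held for regions seen in only the second-named list.

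Among regions present in both lists, 12 of 80 member regions (15.0%) were at least 2-fold higher in selected cells on soft gel, beside 13.2% of all such regions, and 0 were lower, beside 1.88%. On stiff gel 7 of 80 (8.75%) were higher, beside 8.38%, and 0 lower, beside 2.57%. Between gels 0 of 87 member regions in ancestral cells differed 2-fold, beside 0.0689% higher and 0.711% lower on soft gel, and 0 of 86 in selected cells, beside 0.146% and 0.72%. Of the regions that were higher on soft gel, 9 lay at IRF7 and 3 at ISG15. On stiff gel 3 lay at IRF7, 2 at ISG15 and 2 at IRF9. All but 1 were at most 2.51 times the list median in the higher list, and the exception was an IRF7 region at 9.63 times in selected soft.

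Away from the IRF1 promoter, most regions around the gene were lower in selected cells. Of its 10 regions with a peak in all 4 lists, 8 had a ratio below the median of all shared regions on both gels (80.0%), beside 43.9% of 71596 regions in all 4 lists. Over all 9 genes 32 of 72 such regions (44.4%) were below the median on both gels and 25 (34.7%) above it, beside 43.9% and 36.1% of all regions, so the genes pointed different ways and their total was near that of all regions. The strongest one, at chr5:132455716-132460674 and 22372 bp beyond the end of IRF1, was at 15.9 and 19.9 times the list median in selected soft and stiff, against 26.5 and 28.9 times in ancestral soft and stiff. Both selected levels lay below both ancestral ones. Its log2 ratio minus the median of all regions was -0.88 (-0.99 to -0.77) on soft gel and -0.54 (-0.63 to -0.44) on stiff gel. Among the 7189 regions that average over 10 times the list median, 1.04% and 3.00% had a lower ratio on soft and stiff gel.

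The region upstream of IRF1 at chr5:132494839-132498940 had 10.2 and 13.2 times the list median in selected soft and stiff, against 14.5 and 18.6 in ancestral soft and stiff. Its centred ratios were -0.65 (-0.80 to -0.51) on soft gel and -0.48 (-0.61 to -0.37) on stiff gel. The region at chr5:132469363-132472787 had 5.57 and 6.59 in selected soft and stiff, against 7.13 and 9.61 in ancestral soft and stiff (-0.50 and -0.54). The neighbouring region at chr5:132463777-132468342 differed less, with 16.9 and 18.4 against 18 and 21.2 (-0.24 and -0.20). The 288 other shared regions within 5 Mb of IRF1 had a median of -0.09 on soft gel and the 296 on stiff gel one of -0.07, so the surroundings lay nearer to the median of all regions than these sites.

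**Figure D4:**
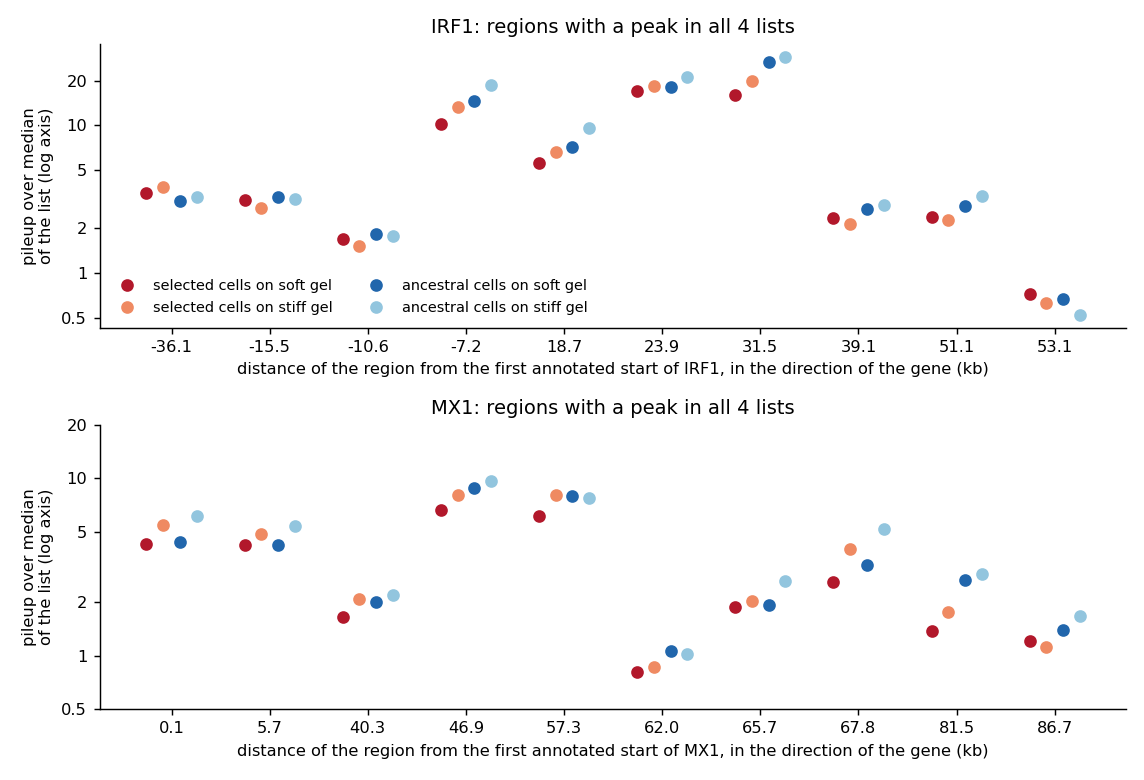
Pileup over the list median (log axis) of the regions of IRF1 (top) and MX1 (bottom) with a peak in all 4 lists, ordered by distance from the first annotated start of the gene. At IRF1 the selected lists lie below the ancestral ones on the same gel at 8 of 10 regions once centred, most at the region of 28.9 times the median in ancestral stiff, and at MX1 at 9 of 10.

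MX1 had 9 of 10 such regions below the median ratio on both gels (90.0%, beside 43.9% of all regions). The region with the lowest ratio, at chr21:41501592-41502630 and 42890 bp past MX1 where TMPRSS2, a membrane serine protease gene, is nearest, had 1.37 and 1.77 times the list median in selected soft and stiff, against 2.66 and 2.90 in ancestral soft and stiff. Its centred ratio was -1.10 (-1.5 to -0.72) on soft gel and -0.71 (-1.05 to -0.39) on stiff gel. A stronger region at chr21:41466505-41468003 had 6.67 and 8.12, against 8.87 and 9.65 (-0.56 and -0.25). The MX1 promoter and its internal start at chr21:41425989-41426288 were closer, the internal start with 4.22 and 4.84 times the median in selected soft and stiff, against 4.23 and 5.39 in ancestral soft and stiff. Among regions of like height, the promoter was above the median on both gels (0.08 and 0.04), as was the internal start (0.13 and 0.06). The regions at chr21:41459677-41461823 and chr21:41477100-41479254 were below it on soft gel alone, and the other MX1 regions on both gels. On soft gel the 498 other shared regions within 5 Mb had a median of -0.24, so part of the surroundings lay in the same direction there. On stiff gel their median was -0.06 over 591 regions.

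The IFIT genes lie side by side inside the annotated span of LIPA, the lysosomal acid lipase gene (chromosome 10, 89213572 to 89414679). All 7 regions of IFIT1 had a peak in each list, and 6 of 7 were below the median ratio on both gels (85.7%, beside 43.9% of all regions). The region upstream at chr10:89369077-89369764 was lower in selected cells, as was the promoter, at 0.843 and 0.786 times the list median in selected soft and stiff, against 1.12 and 1.36 in ancestral soft and stiff. Its centred ratios were -0.55 (-1.09 to -0.04) and -0.78 (-1.29 to -0.30). Among regions of like height, this region was at -0.45 and -0.65 from their median, and the promoter region at -0.39 and -0.32. Each of the other IFIT1 regions lay above the median of its height class on at least 1 gel. The strong region at chr10:89373852-89375217 had 8.43 and 6.57, against 9.40 and 7.19 (-0.30 and -0.13). The strongest peak between the IFIT genes, at chr10:89350512-89353097 and 11319 bp past IFIT3, had 14.1 and 17.5, against 13.2 and 19.5 (-0.05 and -0.16). IFIT3 had 3 of 5 and IFIT2 3 of 8 regions below the median on both gels. At IFIT2 the region at its far end, chr10:89307106-89310709, was higher in selected cells on soft gel, with 1.41 and 0.911 in selected soft and stiff, against 0.757 and 0.644 in ancestral soft and stiff (0.75, 0.28 to 1.23 on soft gel and 0.50, -0.03 to 1.02 on stiff gel). Among regions that average under the list median it was at 0.16 and 0.02 from their median, and 60.0% and 51.5% had a lower ratio. In the surroundings of IFIT1 the median was -0.17 on soft gel and -0.11 on stiff gel, over 273 and 291 regions.

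Ahead of IFIT2, a region at chr10:89295724-89296607 had a peak in both ancestral lists only, at 0.865 in ancestral soft and 0.750 in ancestral stiff. Less than 1 kb further on, chr10:89297344-89298450 had a peak in both selected lists only, at 0.667 in selected soft and 0.482 in selected stiff. All 4 peaks are below the median height of their list.

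**Figure D5:**
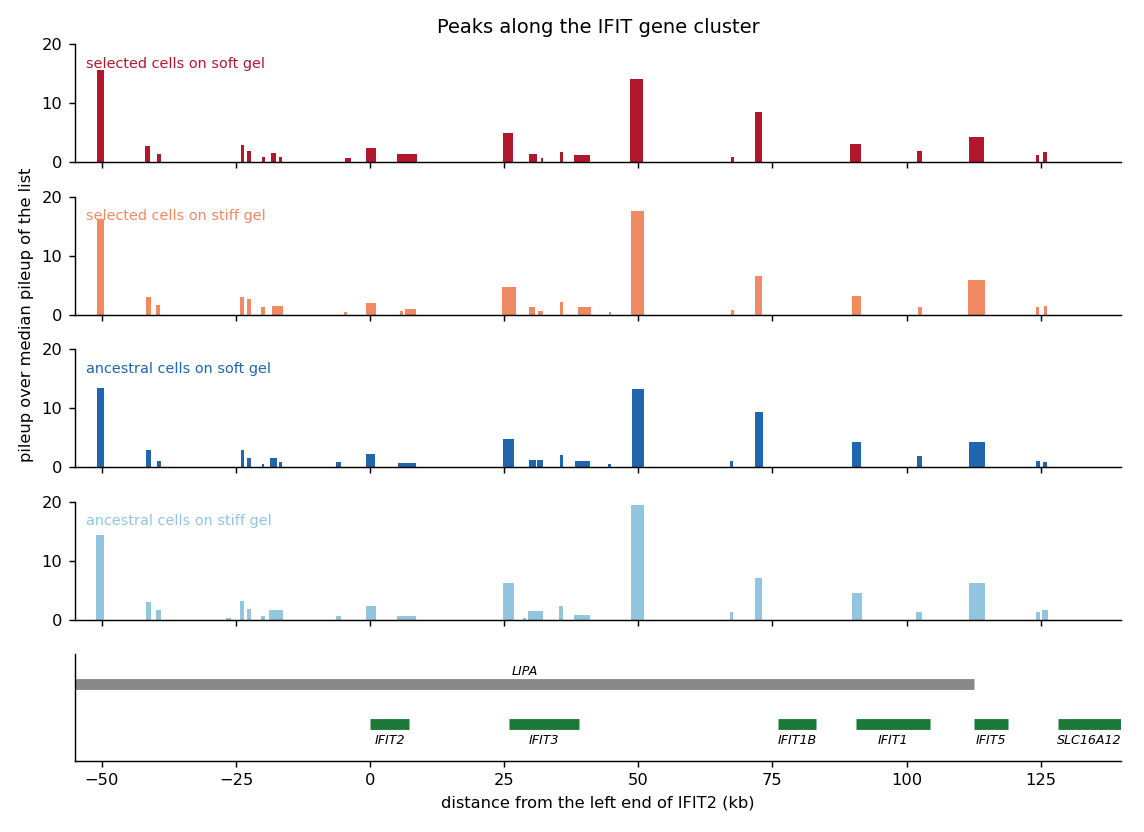
Peaks along the IFIT gene cluster in the 4 lists, drawn at their width and as pileup over the list median, against distance from the left end of IFIT2 in kb, with annotated genes underneath. Most peaks recur in each list, among them the one past IFIT3 at 14.1, 17.5, 13.2 and 19.5 times the median from top to bottom, and a few low ones are in some lists only.

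IRF7 and ISG15 sit in gene-dense ends of chromosomes, and many of their peaks were higher in selected cells. At IRF7, 9 of 13 regions with a peak in all 4 lists were above the median ratio on both gels (69.2%, beside 36.1% of all regions), with medians of 0.90 on soft gel and 0.64 on stiff gel. One such region, chr11:596531-599994, had 1.39 and 1.23 times the list median in selected soft and stiff, against 0.505 and 0.576 in ancestral soft and stiff. Another 4 had a peak in both selected lists only, among them chr11:580259-582317 at 1.02 in selected soft and 0.589 in selected stiff. The strong region at chr11:573954-577977 was higher in selected cells as well, with 14.9 and 15.5, against 11.4 and 13.4 (0.24 and 0.21). Among regions that average over 10 times the list median, 95.4% and 89.9% had a lower ratio on soft and stiff gel. The region at chr11:640105-645091, nearest to DEAF1, had 9.63 in selected soft and was undetermined in selected stiff, against 3.93 and 4.31 in ancestral soft and stiff (1.15, 0.96 to 1.34 on soft gel). No peak near IRF7 had IRF7 as its nearest protein-coding gene. PHRF1 and DEAF1 were the nearest for most of them.

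At ISG15, 3 of 4 shared regions were above the median on both gels (75.0%, beside 36.1% of all regions). The region at chr1:1033839-1040896, nearest to AGRN, had 1.88 and 1.68 in selected soft and stiff, against 0.505 and 0.667 in ancestral soft and stiff (1.75 and 1.34). The strong region at chr1:970171-977039, nearest to PERM1, had 17 and 17.8, against 11.7 and 13.1 (0.39, 0.27 to 0.52 on soft gel and 0.44, 0.33 to 0.55 on stiff gel). The nearest region read in all lists, chr1:1003113-1007562 by HES4, had 2.14 and 2.71, against 3.04 and 2.66 (-0.65 and 0.03). Height of the peak moved with these differences. Over all 18660 shared regions that average under the list median, the ratio of selected to ancestral had a median of 0.74 on soft gel and 0.48 on stiff gel before centring, beside 0.86 and 0.74 for the 14 member regions among them. Location moved with them too, since the other shared regions within 5 Mb had medians of 0.43 and 0.44 around ISG15 and 0.22 and 0.27 around IRF7. The part of peak height and of location in these results was not tested.

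IRF9 had regions in the selected lists alone and none in the ancestral lists alone. With undetermined regions left out, 7 of 17 (41.2%) were unique to selected cells on soft gel, beside 31.0% of all regions. On stiff gel 3 of 14 (21.4%) were, beside 22.5%, so the IRF9 share there was near that of all regions. Regions unique to ancestral cells were 13.3% and 15.8% of all regions on soft and stiff gel. The IRF9 regions unique to selected cells include chr14:24164727-24166122 inside the gene, at 0.686 in selected soft and 0.554 in selected stiff. Another is chr14:24171195-24173700 by REC8, at 1.10 and 0.804. Within 5 Mb, 114 of 359 other regions were unique to selected cells and 28 to ancestral cells on soft gel, and 95 and 36 of 371 on stiff gel. The tallest peaks of all 9 genes were in the IRF9 window, 46.5 kb away by NRL, at 35.9 and 37.2 times the list median in selected soft and stiff, against 28.6 and 32.5 in ancestral soft and stiff. Of the 5 tallest peaks, 4 are at this site, and the other is the IRF1 region of 28.9 in ancestral stiff.

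OAS1 had more peaks in selected cells on soft gel, all of low height. Of its 11 regions on soft gel, 5 were unique to selected cells and 1 to ancestral cells (45.5% and 9.09%), beside 30.8% and 15.7% of all regions. The 5 peaks, all between 0.569 and 0.725 times the list median, were in no other list. Around OAS1, 370 of 793 other regions within 5 Mb were likewise unique to selected cells on soft gel and 47 to ancestral cells. The strong peaks of the window belong to its relatives, with 5.67 and 5.32 in selected soft and stiff, against 5.58 and 5.95 in ancestral soft and stiff by OAS3, and 7.75 and 7.93, against 8.53 and 9.73, by OAS2. Over the 4 lists, the genes whose promoter levels were most like those of OAS1 among 13230 genes were DRC7, DUSP13A and APOB, at a root of summed squared log2 differences of 0.150, 0.192 and 0.197.

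Peaks around the 9 genes were wider than those of their lists. Their median width was 1286.5 and 1165 bp in selected soft and stiff, and 1153 and 1126 bp in ancestral soft and stiff, beside 818, 789, 806 and 826 bp for all peaks in that order. The peaks of OAS1 had lower medians than their lists, at 680, 421, 570 and 695 bp. Those of MX1 in selected soft (786.5 bp) and of IFIT1 in selected stiff (743 bp) were also below the list median. The promoter peak of IRF9 measured 3683 and 2912 bp in selected soft and stiff, against 2361 and 2954 bp in ancestral soft and stiff. That of IFIT1 measured 1927 and 1718 bp, against 1686 and 1892 bp, so its width did not separate the populations as its height did. That of OAS1 measured 640 and 332 bp, against 547 and 443 bp.

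The wider interferon pathway was described by promoter peaks of 75 further genes, of which 60 have an annotated start in the promoter table and 15 were read at either end of the gene. Of these, 63 had a promoter peak in all 4 lists and 9 in none, namely the ligands IFNB1, IFNA1, IFNE, IFNG and IFNK, the factor IRF8, and IFIT1B, CXCL10 and CXCL11. The remaining 3, IRF3, SOCS1 and SOCS3, were undetermined in at least 1 list. Relative to all promoters, the median of the list was 0.00 over 64 genes on soft gel and -0.11 over 65 genes on stiff gel for selected against ancestral cells, with 30 and 48 genes below 0. None of 64 was past 2-fold on soft gel, and 1 of 65 was past 2-fold lower on stiff gel. With annotated starts and the same peak in both lists alone, a choice made after the data were seen, the medians were 0.07 over 49 genes and -0.11 over 50 genes, with 22 and 37 below 0 and none past 2-fold.

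Among ligands, the type III interferon genes IFNL1 and IFNL2 had weak promoter peaks in every list, IFNL2 at 1.92 and 1.59 times the list median in selected soft and stiff, against 1.57 and 1.89 in ancestral soft and stiff. Of the 6 receptor genes, IFNAR2 has no annotated start in the promoter table, and the peak found at one of its ends is the promoter peak of IL10RB, a chain of the type III receptor, so IFNAR2 has no value of its own. The IL10RB peak had 1.73 and 2.79 in selected soft and stiff, against 2.41 and 3.60 in ancestral soft and stiff (-0.50, -0.86 to -0.15 on soft gel and -0.34, -0.61 to -0.08 on stiff gel). The 5 receptor genes with an annotated start were all below 0 on stiff gel, and 3 of 5 on soft gel. STAT2, a subunit of ISGF3, was higher in selected cells, with 30.5 and 31.3, against 24.5 and 26.3 (0.30, 0.20 to 0.39 and 0.28, 0.20 to 0.37). STAT3 had 33.8 and 34.7, against 28.5 and 29.7 (0.23 and 0.26).

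Among sensors and relays, RIGI, a cytosolic RNA sensor, had 11.7 and 11.8 in selected soft and stiff, against 8.86 and 11.8 in ancestral soft and stiff (0.38, 0.23 to 0.53 on soft gel and 0.02, -0.11 to 0.15 on stiff gel). IRF2, a repressor that competes with IRF1, was read at one gene end and had 5.94 and 7.32, against 7.82 and 8.89 (-0.42, -0.61 to -0.23 and -0.25, -0.42 to -0.09). Among targets, MX2, the neighbour and relative of MX1 and likewise read at one gene end, had the lowest ratio of the list, with 5.73 and 5.79 in selected soft and stiff, against 9.86 and 11.6 in ancestral soft and stiff (-0.80, -1.0 to -0.62 on soft gel and -0.98, -1.15 to -0.80 on stiff gel). Its ratio before centring was -1.01 on stiff gel, the 1 gene past 2-fold. OASL, a relative of OAS1, has no annotated start in the promoter table, and its highest peak in selected soft lay 22623 bp from that in the other 3 lists, so its levels of 7.31 in selected soft and 3.68 in ancestral soft belong to different sites and give no ratio. On stiff gel the OASL peak was the same site, with 5.29 in selected and 5.15 in ancestral cells (0.07, -0.13 to 0.27). Between gels in selected cells, SAMD9L, an antiviral gene, was higher on soft gel (1.2 against 0.571 on stiff gel) and IRF2BP2, a corepressor of IRF2, lower (9.14 against 18.4), each past 2-fold before centring. The IRF2BP2 ratio was -0.85 once centred, and its summits lay 1968 bp apart in the same peak. PIAS1, a SUMO ligase that restrains cytokine signalling, had 4.29 and 5.29 in selected soft and stiff, against 4.77 and 6.13 in ancestral soft and stiff (-0.17 and -0.18).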

How the data were processed

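Accessible chromatin of 16 MDA-MB-231 samples in 4 groups was measured by ATAC-seq, with nuclei from 200000 cells and libraries on 50000 nuclei, per the labels' protocols. Per the submitters' processing notes, the tools were MACS2 (2.2.7.1), Bowtie2 (2.4.5), Trimmomatic (0.36), MultiQC (1.1) and FastQC (0.11.4), and the build was GRCh38. A single peak table per group was deposited by the authors. Per the file headers it gives the position, summit, pileup signal, −log10 q-value and fold enrichment ratio of each peak, and a p-value left unused here. How the 4 samples of a group were combined is not given in the sources used here. The fold enrichment was used to recover the genome-wide background of each list.

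From these values, peaks were assigned to the 9 genes by summit within 50 kb, using GRCh38.p14 gene positions from RefSeq. Lists were merged by overlap of at least 1 bp. The promoter peak was the one with the highest pileup within 1 kb of any annotated start (either gene end where the promoter table has none, as for IRF7 and IFIT2). A list without a peak where it skips a peak number was undetermined. Promoter ratios were centred on the median of all promoters, region ratios on that of all regions in both lists. Intervals are exact binomial (Clopper-Pearson) at 95% and cover counting error only. Those of region shares take neighbouring regions as independent. The named genes were the 9 members, per pathway role the 2 with the largest ratio on soft gel, list genes past 2-fold, the 5 tallest member peaks and regions in both lists of 1 population. Other regions were chosen after their values were seen. The members, gene lists and settings were chosen with earlier results of these data known. Alternatives were another overlap, a −log10 q-value of at least 10, a 10 kb window, the nearest of all genes, merging within 500 bp, leaving out undetermined regions, 2 other scales and the peak nearest to the start. Steps were tested on simulated data. Work used scipy 1.17.1 and pandas 2.3.3 under python 3.11.15, with matplotlib 3.10.9 for the plots and numpy 2.4.6.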

Additional observations from a re-analysis of the deposited data

How the results depend on the processing

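No paired analysis was possible because each group has 1 peak list with no columns per sample, and for the same reason the replicate block and leaving out a replicate were not run. The share of unshared member regions that lay in the first-named list was 61.7% for selected against ancestral cells on soft gel, 51.3% on stiff gel, and 61.8% for soft against stiff gel in selected cells, while ancestral cells had 13 regions on each side. Of all regions, 46400 lay in selected cells alone and 23724 in ancestral cells alone on soft gel, and 32868 and 25140 on stiff gel. Soft against stiff gel gave 28426 and 18536 in selected and 11256 and 19450 in ancestral cells. The first-named list thus held more unshared regions among all regions too, except in ancestral cells. With peaks of −log10 q of at least 10 alone it was 32.1% and 32.0% for selected cells on soft and stiff gel, beside 33.4% and 25.1% of all unshared regions. That cut is not equal across lists. A value of 10.2 went with 0.786 times the list median in selected stiff, and 9.16 and 9.68 with 0.441 and 0.432 in ancestral soft and stiff. It thus removes taller peaks, for their list, from the selected lists, and cannot show on which side unshared regions were more numerous. The main calls share this limit, since weak listed peaks also stood higher over their list median in the selected lists. Without undetermined peaks the share in the first-named list was 76.5% and 69.2% for selected against ancestral cells on soft and stiff gel. Of all regions, 44958 and 19302 then lay in selected and in ancestral cells alone on soft gel, and 31512 and 22055 on stiff gel. For ancestral cells between gels the share was 14.3%, beside 9841 of all regions on soft gel alone and 18492 on stiff gel alone. The 10 kb window gave 88.9% there, beside all regions as in the main setting. The share for selected cells between gels stayed within its interval under every alternative run. The members' median promoter ratio before centring was 0.06 on soft and -0.20 on stiff gel, and -0.79 and -0.76 over the genome-wide background, which shifts all promoters alike. On soft gel it was -0.01 over the median of regions shared by all lists. On stiff gel IFIT3 was at -0.39 and, with the peak nearest to a start, at 1.62, where different starts stood for the populations. The median of the pathway list was 0.07 on soft gel with annotated starts and the same peak alone, against 0.00, and -0.02 and 0.08 between gels in ancestral and selected cells, against -0.01 and 0.07. Depth per sample is unknown, and OAS1, with pileups from 48 to 89, has the widest intervals.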
